A study of Mus musculus with 8 samples.

Results

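The 10 genes described here, Gfra1, Ret, Id4, Zbtb16, Etv5, Sall4, Lin28a, Bcl6b, Nanos2 and Nanos3, are known for their part in the self-renewal or upkeep of spermatogonial stem cells. They were taken by gene symbol from a table of 23983 genes, and all 10 were found in it. Their levels were read from RNA-seq of testis pieces of C57BL/6J mice at 12, 16 and 24 days after birth (d12, d16, d24) and of adult mice, whose age in days the labels do not give. There was 1 library per stage, the labels name no treatment or transgene, and they do not say whether a library came from 1 animal or several. Levels are in FPKM, the fragments counted per kilobase of transcript, with the scaling between libraries left as deposited. The 3 young ages fall within the first wave of spermatogenesis, in which germ cells pass through meiosis before spermatids form.

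Spermatogonial stem cells sit on the basement membrane of the seminiferous tubule and either renew themselves or give rise to differentiating spermatogonia. Sertoli and peritubular cells secrete GDNF, which binds the co-receptor GFRA1, and the pair then activates the receptor tyrosine kinase RET. Signalling through RET is known to induce the transcription factor genes Etv5 and Bcl6b. ZBTB16, SALL4 and ID4 act in the nucleus, ID4 as an inhibitor of basic helix-loop-helix factors, while LIN28A, NANOS2 and NANOS3 act on RNA. Stem cells are a small share of the testis, so the table holds their transcripts mixed with those of all other cells. In whole testis, fewer cells of a type and less RNA per cell cannot be told apart.

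RefSeq start sites on GRCm38.p6 were given for 6 of the 10 genes, Gfra1, Id4, Etv5, Lin28a, Nanos2 and Nanos3. The 250 bases before the start are shown for the genes at both ends of the range of levels, Id4 and Nanos2, and for the other 2 genes with a motif match, Etv5 and Nanos3. They are written 5′ to 3′ on the gene's strand, at chr13:48260866-48261115 on the plus strand for Id4, chr16:22439571-22439820 on the minus strand for Etv5, chr8:84176553-84176802 on the minus strand for Nanos3 and chr7:18987274-18987523 on the plus strand for Nanos2. Capitals mark matches on either strand to the GC box GGGCGG, the TATA box TATAAA or the E-box CAGGTG.
Id4: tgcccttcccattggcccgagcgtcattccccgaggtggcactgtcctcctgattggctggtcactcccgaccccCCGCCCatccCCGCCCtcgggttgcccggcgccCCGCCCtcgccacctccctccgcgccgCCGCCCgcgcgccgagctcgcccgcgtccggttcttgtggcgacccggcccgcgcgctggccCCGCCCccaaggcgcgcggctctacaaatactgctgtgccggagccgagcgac
Etv5: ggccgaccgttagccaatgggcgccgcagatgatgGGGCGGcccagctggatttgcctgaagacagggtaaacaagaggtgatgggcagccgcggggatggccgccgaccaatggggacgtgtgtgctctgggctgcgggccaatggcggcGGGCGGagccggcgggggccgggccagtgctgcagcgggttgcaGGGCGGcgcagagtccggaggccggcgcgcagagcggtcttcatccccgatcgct
Nanos3: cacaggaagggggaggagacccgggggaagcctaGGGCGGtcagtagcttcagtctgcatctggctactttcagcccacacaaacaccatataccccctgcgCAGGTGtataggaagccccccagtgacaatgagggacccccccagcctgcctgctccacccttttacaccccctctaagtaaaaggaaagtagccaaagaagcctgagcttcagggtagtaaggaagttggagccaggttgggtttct
Nanos2: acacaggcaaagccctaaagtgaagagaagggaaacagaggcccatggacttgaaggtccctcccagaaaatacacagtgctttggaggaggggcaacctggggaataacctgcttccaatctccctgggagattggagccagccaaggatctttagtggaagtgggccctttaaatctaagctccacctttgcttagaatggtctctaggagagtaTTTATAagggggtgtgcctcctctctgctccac

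The Id4 sequence held 5 matches to the GC box, 75.6% G and C and 35 CpG dinucleotides, and 97.0% of the 32851 windows in the reference held fewer CpG. The Nanos2 sequence held no CpG and no GC box, and its TATA box match lay on the opposite strand, 33 to 28 bases before the start. Etv5 had 3 GC box matches and 71.2% G and C. Nanos3 had a GC box and CAGGTG. No match was found in the windows of Gfra1 and Lin28a or in a second Etv5 window, and no member window held the ETS core CCGGAAG, the E-box CACGTG, the octamer ATGCAAAT or the cAMP response element TGACGTCA. Over all windows, 32.7% held a GC box, 12.4% the TATA box, 17.2% CAGGTG, 6.91% CCGGAAG, 6.02% CACGTG, 1.60% the octamer and 1.55% the cAMP response element. None of the matches shown overlapped another, and a match here is a description of the sequence only.

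The 4 libraries held an estimated 8909926 to 23687685 fragments on genes, fewest at d12 and most at d24. The estimate was worked back from FPKM and the mean curated transcript length of each of 22538 genes. For a transcript of 1 kb, 1 fragment was worth 0.0799 FPKM at d12, then 0.0800 at d16 and 0.0455 at d24, against 0.112 in adult testis. Intervals given below are exact 95% Poisson intervals on the fragments or, for ratios, exact 95% Clopper-Pearson intervals. Both cover counting error only and not the spread between animals, for which there are no replicates, so no p-value is given. Markers of later germ cells were higher in adult testis than at d12. Over 6 pachytene spermatocyte, 6 round spermatid and 6 elongating spermatid markers, median log2 changes from d12 to adult were 6.56, 8.97 and 10.7. From d12 to d16 they were 3.18, 0.47 and -1.42, and from d16 to d24 2.74, 7.05 and 9.02. All 6 elongating spermatid markers were lower at d16 than at d12, with Prm2 at 2.35 against 4.57 FPKM. Why they were detected at d12 was not tested.

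**Figure D1:**
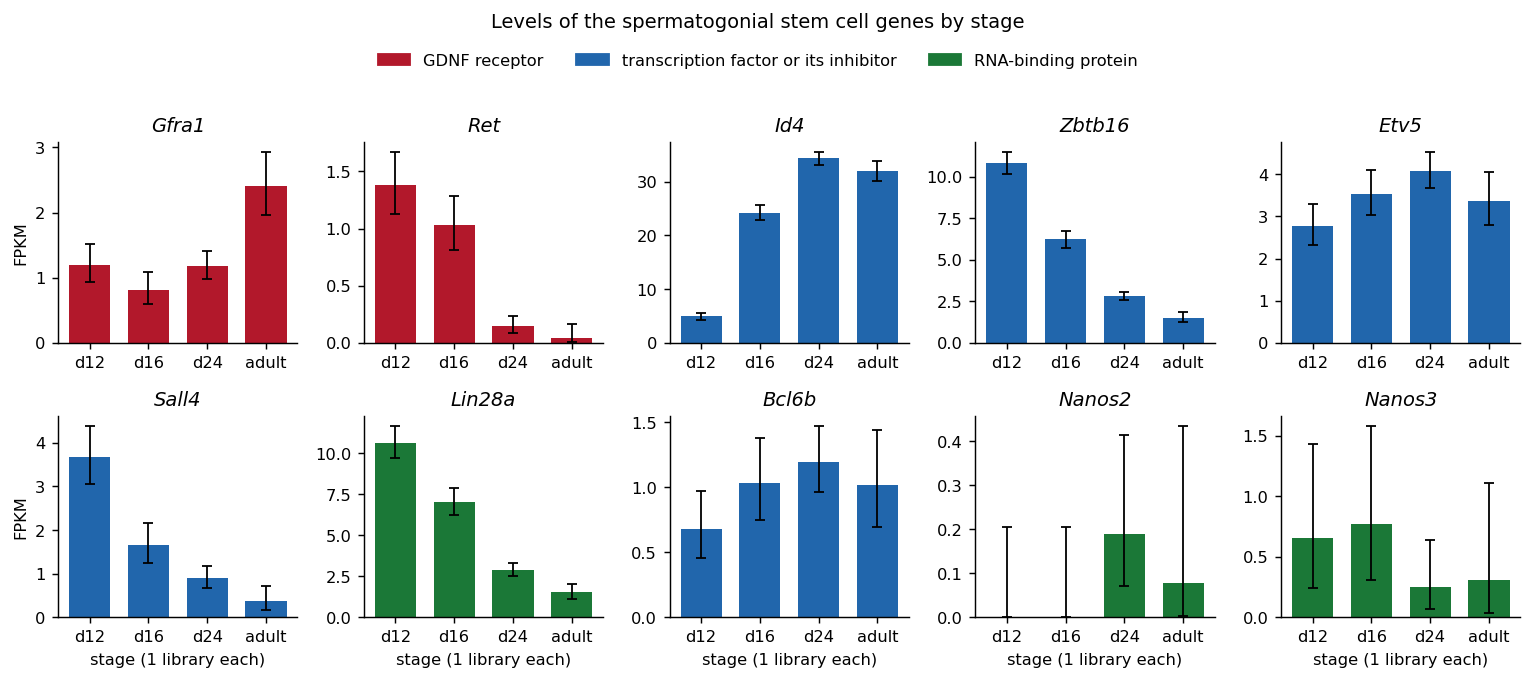
Levels of the 10 genes in FPKM (vertical axis, own scale per gene) at d12, d16, d24 and in adult testis (horizontal axis), 1 library per stage, with bars coloured by role and whiskers giving 95% Poisson intervals from the fragments. Zbtb16, Sall4, Lin28a and Ret step down with age, Id4 steps up to 24.2 FPKM at d16, Gfra1 is highest in adult testis as deposited, and Nanos2 is at 0 at d12 and d16.

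Both parts of the GDNF receptor read alike at d12 and d16 and far apart later. Gfra1, the co-receptor that binds GDNF (chromosome 19, 58235581 to 58455946, minus strand), had 1.20 FPKM at d12, then 0.814 at d16 and 1.18 at d24, against 2.41 in adult testis, from 69 to 72, 47 to 49, 120 to 123 and 100 to 103 fragments. Its adult level was 2.01 times that at d12 (1.47 to 2.78), and d16 was the lowest stage, at 0.678 times the d12 level (0.458 to 0.997). With the libraries rescaled, the lowest stage of Gfra1 became d12 when divided by Gapdh and d24 with a common FPKM sum. Ret, the kinase that carries the signal into the cell (chromosome 6, 118151748 to 118197744, minus strand), had 1.38 FPKM at d12, then 1.03 at d16 and 0.148 at d24, against 0.0458 in adult testis. The adult value of Ret rests on 2 to 3 fragments and the d24 value on 19 to 24.

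Ret at d12 was 30.1 times its adult level (8.14 to 252.2). Most of that gap lay between d16 and d24, where d16 was 6.98 times d24 (4.19 to 12.2). The ratio of d16 to d12 was 0.746 (0.549 to 1.0099), an interval that only just includes 1. It uses the fewest fragments, 104 at d12 and 78 at d16, of ranges up to 127 and 95, and more fragments would narrow it. Of the 13901 genes whose mean over the 4 libraries reached 1 FPKM, 0.259% had a lower log2 change than Ret from d16 to d24. Within a library, where the scaling between libraries cancels, Gfra1 over Ret was 0.868 at d12 (0.631 to 1.19), then 0.790 at d16 (0.538 to 1.15) and 7.98 at d24 (4.90 to 13.7), against 52.7 in adult testis (14.2 to 441.0). The d24 and adult intervals lie clear of each other and of those at d12 and d16.

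A predicted gene, Gm46650, overlaps Gfra1 on the same strand in the annotation and has no row under that symbol, so the share of its fragments in the Gfra1 value was not tested. Gm10007, an lncRNA gene on the other strand, was listed at 0 FPKM at all 4 stages. Neither Gfra1 nor Ret had a stretch of 50 bases or more at 95% identity elsewhere on the chromosomes.

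**Figure D2:**
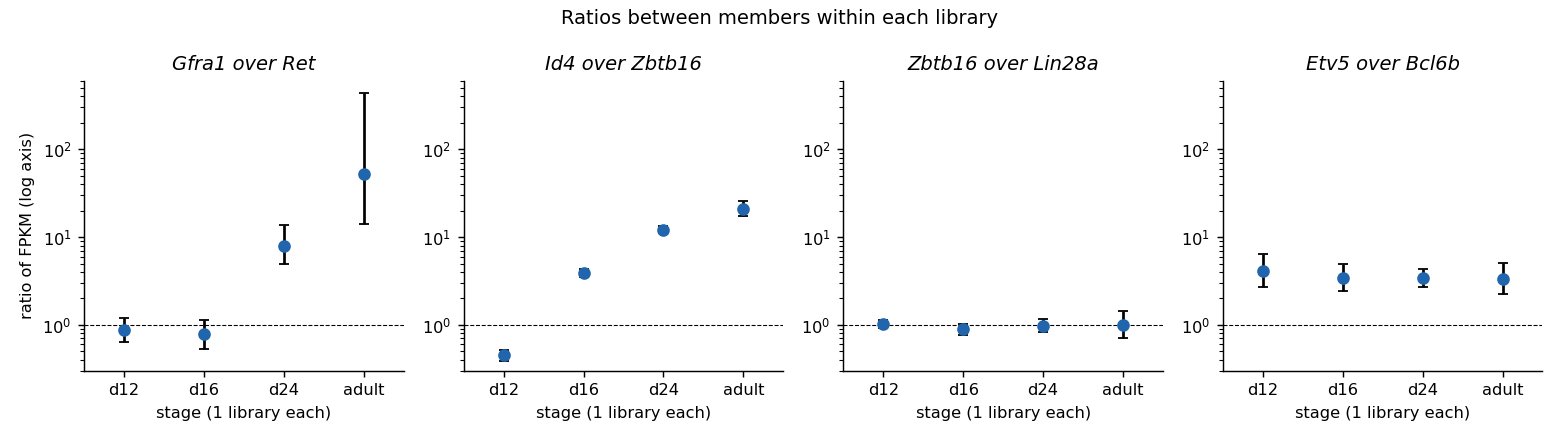
Ratios of FPKM between pairs of the genes within each library (vertical log axis) at the 4 stages (horizontal axis), with 95% Clopper-Pearson intervals from the fragments and a dashed line at 1. Gfra1 over Ret, the only planned pair shown, goes from 0.868 at d12 to 52.7 in adult testis. Id4 over Zbtb16 goes from 0.453 to 21.1. Zbtb16 over Lin28a stays within 0.888 to 1.02 and Etv5 over Bcl6b within 3.33 to 4.11.

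Zbtb16, Lin28a and Sall4 were each lower at every later stage. Zbtb16, the zinc finger repressor PLZF (chromosome 9, 48651797 to 48836225, minus strand), had 10.8 FPKM at d12, then 6.23 at d16 and 2.81 at d24, against 1.51 in adult testis, from 1032 to 1036 fragments at d12 and 102 to 103 in adult testis. Lin28a, an RNA-binding protein that blocks maturation of let-7 miRNAs (chromosome 4, 134003330 to 134019196, minus strand), had 10.6, 7.01, 2.88 and 1.51 FPKM from 464, 305, 220 and 47 fragments. Sall4, a zinc finger transcription factor of the spalt family (chromosome 2, 168748332 to 168767201, minus strand), had 3.68, 1.66, 0.892 and 0.368 FPKM, the adult value from 8 to 17 fragments. Sall4 was the lowest of the 3 at each stage, and Zbtb16 and Lin28a differed from each other by less than the counting error at each.

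From d12 to adult the ratio of the levels was 7.16 for Zbtb16 (5.84 to 8.87), 7.03 for Lin28a (5.20 to 9.70) and 10.0 for Sall4 (4.92 to 23.7), each as d12 over adult. All 3 intervals overlap. Each of the 3 steps between neighbouring stages was also downward for these genes with an interval clear of 1. The Zbtb16 level at d12 was 1.74 times that at d16, d16 was 2.21 times d24, and d24 was 1.86 times adult testis. Lin28a gave 1.52, 2.44 and 1.90 for the same steps, and Sall4 gave 2.22, 1.86 and 2.42. Divided by Gapdh, 3 of these 9 steps turned upward, Zbtb16 and Sall4 from d16 to d24 and Lin28a from d12 to d16.

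Zbtb16 over Lin28a within each library was 1.02 at d12 (0.911 to 1.14), then 0.888 at d16 (0.772 to 1.02) and 0.977 at d24 (0.831 to 1.15), against 0.999 in adult testis (0.701 to 1.44), a pair chosen after the values were seen. Zbtb16 over Sall4, also a pair not planned, was 2.95, 3.76, 3.15 and 4.11. Of the longest Lin28a transcript, 16.4% had 1 near copy elsewhere in the genome, at 95% identity or more. Fragments from that stretch can be placed at either copy. Of Zbtb16, 3.68% (281 bases) matched 463132 stretches elsewhere, none longer than 100 bases, a repeat rather than a copy of the gene.

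Id4 went the other way. Its product binds basic helix-loop-helix transcription factors and keeps them from DNA, and high Id4 marks cells with stem cell activity in transplantation assays. Id4 (chromosome 13, 48261116 to 48266028, plus strand) had 4.91 FPKM at d12 (4.31 to 5.56), then 24.2 at d16 (22.9 to 25.7) and 34.3 at d24 (33.1 to 35.6), against 32.0 in adult testis (30.1 to 33.9), from 243, 1200, 2988 and 1129 fragments at the least. The d16 level was 4.94 times the d12 level (4.30 to 5.69) and the adult level 6.51 times (5.66 to 7.51). From d24 to adult the level was lower by a small amount, to 0.931 times (0.868 to 0.997).

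Id4 was below Zbtb16 and Lin28a at d12 and highest of the 10 at the 3 later stages. It made up 13.3% of the summed FPKM of the 10 genes at d12, then 52.3% at d16 and 71.6% at d24, against 75.0% in adult testis. Without it the sum was 31.9 FPKM at d12, then 22.1 at d16 and 13.6 at d24, against 10.6 in adult testis, whereas with it the sum was 36.8, 46.3, 48.0 and 42.6. As deposited, the direction of the summed level from d12 to adult differed with and without Id4. These sums depend on the scaling between libraries, and their direction under other scalings was not tested. Within each library Id4 over Zbtb16, a pair not planned, was 0.453 at d12 (0.392 to 0.521), then 3.89 at d16. At d24 this ratio was 12.2, against 21.1 in adult testis (17.2 to 26.1). An lncRNA gene that overlaps Id4 on the other strand, A330033J07Rik, had 0, 0.0284, 0.0808 and 0.319 FPKM, and the libraries keep strand. No near copy of the Id4 transcript was found.

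Etv5 and Bcl6b, the 2 transcription factor genes known to answer to GDNF, lay within a narrow range. Etv5, an ETS factor (chromosome 16, 22381313 to 22439570, minus strand), had 2.78 FPKM at d12, then 3.54 at d16 and 4.08 at d24, against 3.37 in adult testis, from 133, 169, 343 and 115 fragments. Bcl6b, a zinc finger repressor (chromosome 11, 70224127 to 70229798, minus strand), had 0.676, 1.03, 1.20 and 1.01 FPKM from 29, 44, 90 and 31 fragments. As deposited, both were lowest at d12 and highest at d24, whereas with a common FPKM sum or upper quartile both were highest at d16 and lowest in adult testis. The adult level over the d12 level was 1.21 for Etv5 (0.938 to 1.57) and 1.5 for Bcl6b (0.875 to 2.58), and both intervals include 1.

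Etv5 over Bcl6b, a pair not planned, was 4.11 at d12, then 3.44 at d16 and 3.42 at d24, against 3.33 in adult testis. The intervals of this ratio overlap. Only the step from d12 to d16 of Etv5 had an interval clear of 1 (1.27, 1.008 to 1.61), and its lower end lies close to 1. The Etv5 values carry a further uncertainty, since 64.9% of its longest transcript has a near copy elsewhere in the genome, and fragments could be placed at either. No near copy was found for Bcl6b.

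Nanos2 and Nanos3, zinc finger proteins that act on RNA in male germ cells, were at the edge of detection. Nanos2 (chromosome 7, 18987524 to 18988962, plus strand) had 0 fragments at d12 and d16, which allows up to 0.166 FPKM at d12 and 0.167 at d16 by the limit of 3 fragments. It had 6 fragments at d24 (0.190 FPKM, 0.0696 to 0.413) and only 1 in adult testis (0.0779 FPKM, 0.00197 to 0.434). Nanos3 (chromosome 8, 84173733 to 84176552, minus strand) had 0.656, 0.767, 0.249 and 0.307 FPKM from 6, 7, 4 and 2 fragments. Each step of Nanos3, and that of Nanos2 from d24 to adult, had an interval that includes 1, and the d24 interval of Nanos2 overlaps the limits at d12 and d16. The d12 to adult ratio of Nanos3, 2.14, has an interval of 0.382 to 21.6, and for Nanos2 no ratio to d12 or d16 is given.

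Read as a list, the 10 genes held members on both sides of the range of all genes. A change of at least 2-fold stands in for a test here, with 0.1 FPKM added to each value and only genes whose mean reached 1 FPKM counted. Gfra1, Id4, Zbtb16, Etv5, Sall4 and Lin28a passed that filter, and Ret, Bcl6b, Nanos2 and Nanos3 did not. From d12 to adult 3 of the 6 were at least 2-fold lower, Zbtb16, Sall4 and Lin28a, against 23.1% of all genes with that mean, and 1 was at least 2-fold higher, Id4, against 35.7%. The 3 lower genes were counted under 4 other scalings as well, but the share of all genes at least 2-fold lower moved to 49.8% with a common FPKM sum, 37.9% with the upper quartile, 22.9% by median ratio and 1.9% with Gapdh, so that with the FPKM sum 3 of 6 is close to that share. By median ratio the factors were 0.996 to 1.005, so that scaling nearly repeats the deposited values. As deposited, only 1.66% of all genes with that mean had a lower change than Zbtb16, 1.04% than Sall4 and 1.73% than Lin28a. Ret, below the filter, was lower than all but 0.626%.

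By step, 1 of the 6 was at least 2-fold lower from d12 to d16, Sall4, against 3.67% of all genes, and 1 at least 2-fold higher, Id4, against 12.6%. From d16 to d24 it was 2, Zbtb16 and Lin28a, against 8.45%, with 0 higher against 27.5%. From d24 to adult it was 1, Sall4, against 2.2%, with 0 higher against 11.4%. The Gfra1 step from d24 to adult, 2.05 times on the plain FPKM scale (1.56 to 2.70), came to 0.98 in log2 with 0.1 FPKM added and so fell short of 2-fold. The median log2 change over all 10 genes was -0.20, -0.31 and -0.49 for the 3 steps and -0.31 from d12 to adult. Without Nanos2, which is listed at 0 at d12 and d16, the medians were -0.39, -0.82, -0.27 and -0.89. Over all genes with the mean of 1 FPKM the medians were 0, 0.13, -0.02 and 0.20.

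**Figure D3:**
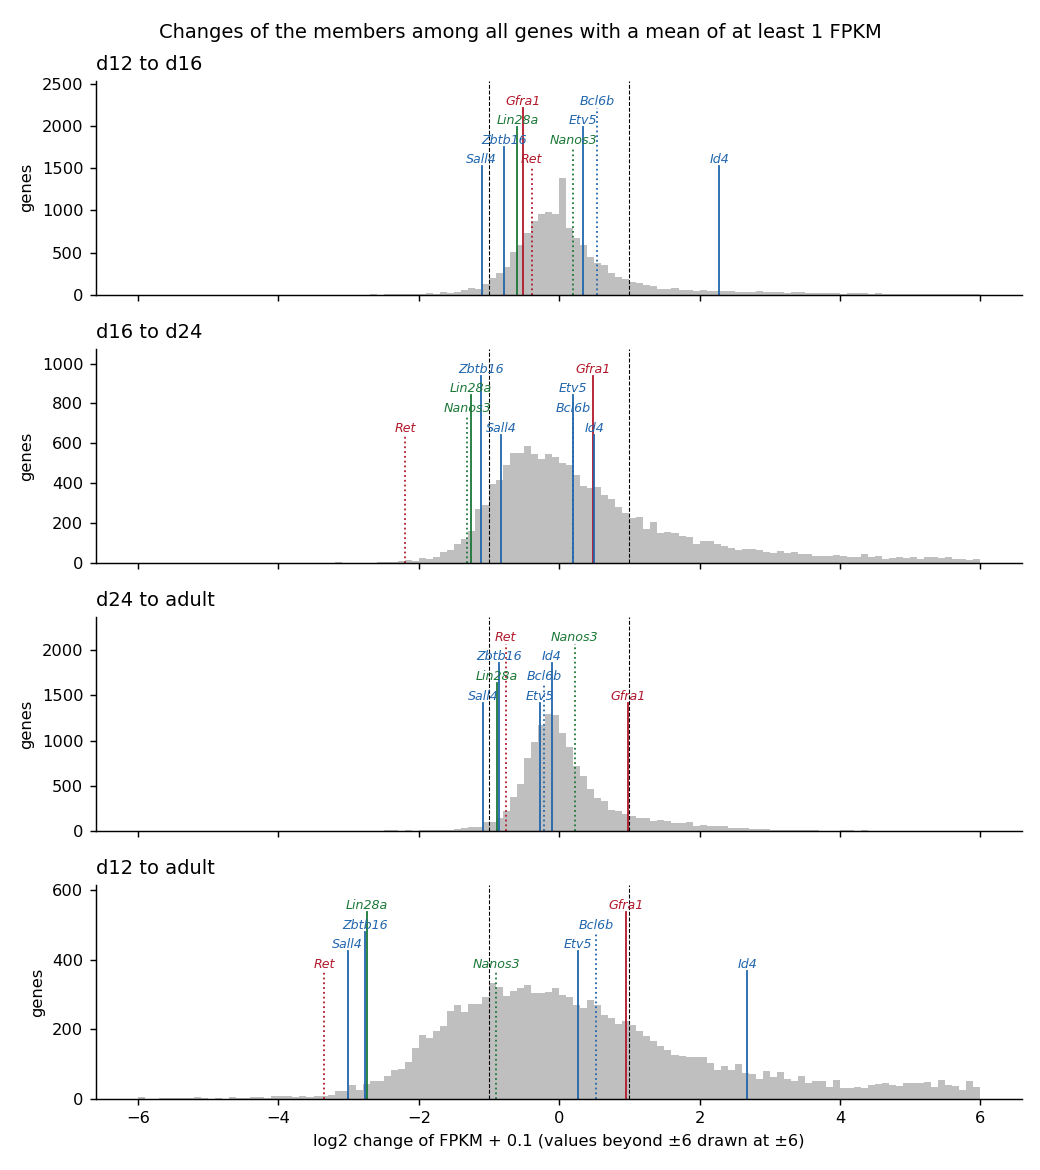
Histogram of the log2 change of FPKM + 0.1 (horizontal axis) over the 13901 genes whose mean reached 1 FPKM (vertical axis, number of genes per bin of 0.1) for 4 comparisons of 1 library each, with the stem cell genes as vertical lines, dotted where a gene is under that mean, and dashed lines at 2-fold. From d12 to adult Ret, Sall4, Zbtb16 and Lin28a lie at the low edge between -3.34 and -2.73 and Id4 at 2.68. Nanos2 is left out because it is listed at 0 at d12 and d16.

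Upstream of the receptor, Gdnf, the ligand, had 1.45 FPKM at d12, then 1.37 at d16 and 0.232 at d24, against 0.325 in adult testis, so that, like Ret, its largest step lay between d16 and d24. Of the other family ligands, Nrtn and Pspn were low, while Artn exceeded Gdnf at d24 and in adult testis. Artn, the ligand of GFRA3, was listed at 0 at d12 and d16 and had 1.56 FPKM at d24, against 1.81 in adult testis. Nrtn, the ligand of GFRA2, was listed at 0, 0.235, 0 and 0.219 FPKM, and Pspn, the ligand of GFRA4, at 0 in all 4 libraries. None of the 4 ligand genes had a mean of 1 FPKM.

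Downstream of RET, 4 of 8 adaptor and kinase genes were at least 2-fold lower in adult testis than at d12. Over all genes that share was 23.1% as deposited and 49.8% with a common FPKM sum. Of the 8 genes 0 were at least 2-fold higher, against 35.7% of all genes, and their median log2 change was -0.83. Only Src was lower as deposited and under 4 other scalings of the libraries, and the direction of the other 7 differed between them. Src, a tyrosine kinase, had the lowest change, from 6.32 FPKM to 1.62. Frs2, an adaptor, had the highest, from 6.67 to 4.83. Fyn and Yes1, Src-family kinases, had the highest levels, from 51.2 to 21.9 FPKM and from 30.1 to 21.4. Of 8 further genes known to be induced by GDNF in cultured stem cells, 4 had a mean of at least 1 FPKM. Of these, 2 were at least 2-fold lower and 1 was higher, against 23.1% and 35.7% of all genes. Mycn, a MYC family factor, went from 8.95 to 1.08 FPKM, and Egr3, an immediate early zinc finger factor, from 0.247 to 4.67. Tspan8, a tetraspanin on the cell surface, had 3.09, 0.791, 1.26 and 5.09 FPKM and, like Gfra1, was highest in adult testis as deposited. With a common FPKM sum the adult level was 0.710 times that at d12 for Tspan8 and 0.866 times for Gfra1.

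Paralogs of the 10 genes did not all move with them. Of the 3 other GDNF family co-receptors, Gfra2 went from 0.554 FPKM at d12 and 0.416 at d16 to 3.85 at d24, then 13.1 in adult testis, and Gfra4 from 1.35 and 4.48 at d12 and d16 to 22.6 in adult testis, both well above Gfra1 in adult testis. Gfra3 was listed at 0.20, 0, 0.0228 and 0 FPKM. The ligands of GFRA2 and GFRA4 were at the low values given above. The Id paralogs moved opposite to Id4. Id2 went from 21.4 FPKM at d12 to 2.64 in adult testis, Id1 from 4.36 to 1.20 and Id3 from 8.30 to 2.12. At d12 Id4 lay between Id1 and Id3, and in adult testis it was more than all 3 together.

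Of the remaining paralogs, Lin28b went from 9.89 to 4.32 FPKM between d12 and adult, so that Lin28a and Lin28b, close at d12, stood apart in adult testis. Sall2 went from 2.09 to 0.423 and Sall1 from 0.927 to 0.405, as did Sall4 itself, while Sall3 went from 0.0232 to 1.09. The ETS genes Etv1 and Etv4 had 2.74 and 0.342 FPKM at d12 and 1.37 and 0.0480 in adult testis. Bcl6 had 0.778 at d12 and 1.16 in adult testis. Nanos1 went from 2.28 to 0.771 FPKM and was above Nanos2 and Nanos3 at every stage. Of 14 paralogs, 9 had a mean of at least 1 FPKM. From d12 to adult 6 of these were at least 2-fold lower and 2 higher, against 23.1% and 35.7% of all genes.

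Other markers of undifferentiated spermatogonia were mostly lower in adult testis. Of 15 such genes 7 had a mean of at least 1 FPKM. From d12 to adult 5 of these were at least 2-fold lower and 0 higher, against 23.1% and 35.7% of all genes. The median log2 change over all 15 was -1.26. Rhox10, a homeobox gene of the X-linked Rhox cluster, went from 4.62 to 0.590 FPKM, and Adgra3, an adhesion receptor also called Gpr125, from 30.1 to 7.44. As deposited, Epcam, a cell adhesion gene, went the other way, from 32.4 to 58.2 FPKM, as did Id4 and Gfra1. With a common FPKM sum the adult level of Epcam was 0.772 times that at d12. Pou5f1 was also higher as deposited, at 3.32 FPKM at d12 and 3.85 in adult testis, but 0.498 times with that sum. Of 9 markers of differentiating spermatogonia 8 were at least 2-fold lower, with a median of -1.87, among them the retinoic acid response gene Stra8 (86.4 to 12.3 FPKM), the retinoic acid binding protein gene Crabp1 (27.9 to 3.92) and the helix-loop-helix factor gene Sohlh1 (10.4 to 0.610). The exception, Dmrtb1, a DM domain factor gene of the switch into meiosis, went from 7.07 to 173.5 FPKM.

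Markers of somatic cells moved as well. The counts here stand beside 23.1% of all genes at least 2-fold lower and 35.7% higher from d12 to adult. Of 10 Sertoli cell markers 7 were at least 2-fold lower in adult testis than at d12 and 0 higher, with a median log2 change of -1.72 and a summed level of 953.7 FPKM at d12, then 801.6 at d16 and 546.5 at d24, against 552.8 in adult testis. Amh, which Sertoli cells switch off as they mature, had 3.12 FPKM at d12 and was listed at 0 in adult testis, while Clu went from 706.7 to 456.6, Cldn11 from 95.4 to 28.0 and Trf from 6.61 to 8.66. Peritubular myoid cell markers (4 of 5 lower, median -1.34, Acta2 from 112.9 to 34.2 FPKM, Des from 4.72 to 2.71) and endothelial markers (3 of 5 lower, median -1.33, Cdh5 from 8.25 to 2.00) went the same way in the deposited scaling. Of 5 macrophage markers 0 passed 2-fold (median -0.39), with Mrc1 at 15.2 FPKM at d12 and 16.2 in adult testis. Of 7 Leydig cell markers 4 were at least 2-fold higher (median 1.12), with Insl3 going from 17.5 to 272.8 FPKM. Early meiotic markers had a median of 0.17, with 2 of 6 lower and 2 higher. How far these cell types add to the level of each stem cell gene was not tested.

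**Figure D4:**
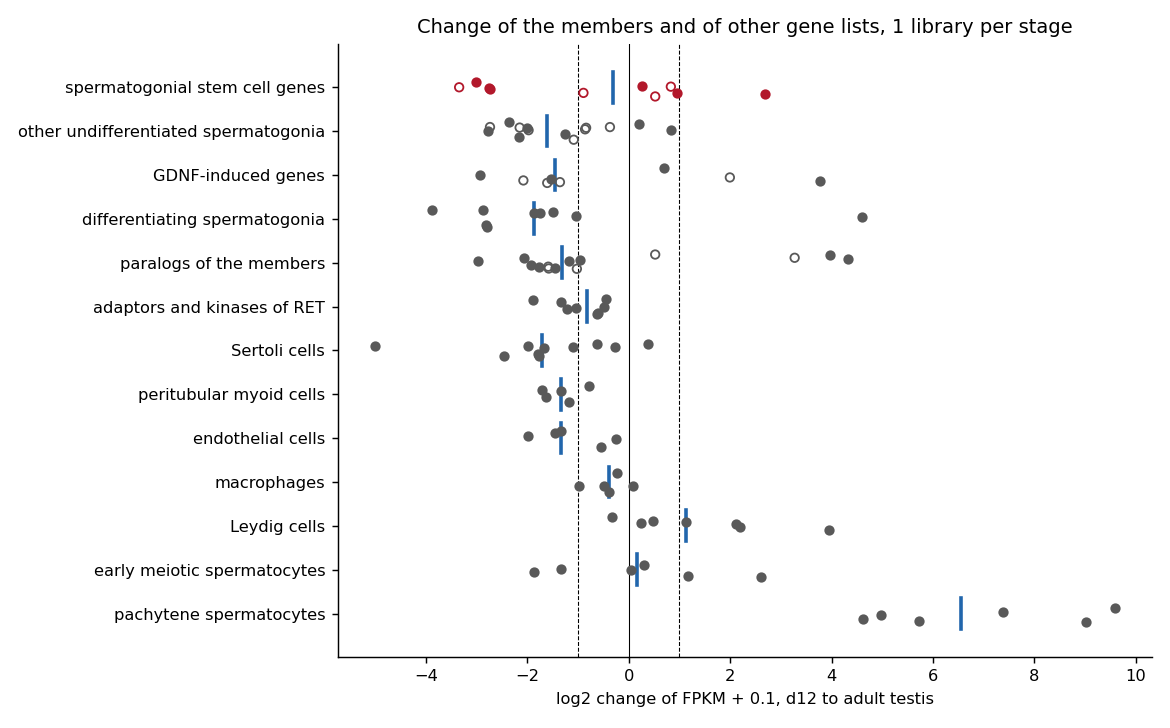
Log2 change of FPKM + 0.1 from d12 to adult testis (horizontal axis) of each gene in 13 lists (vertical axis), 1 library per stage, with filled points for genes whose mean reached 1 FPKM, open points for the others, blue bars at each list's median over genes above 0, and dashed lines at 2-fold. The stem cell genes, in red, spread from -3.34 (Ret) to 2.68 (Id4).

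Setting the changes against the Sertoli list cancels the scaling between libraries, and 9 of the 10 genes have such a value, all but Nanos2. The median Sertoli marker in adult testis was at 0.304 times its d12 level. Relative to that median, Ret was 9.15 times lower, Sall4 3.03 times, Zbtb16 2.17 times and Lin28a 2.13 times, and each of these 4 had a lower ratio than 9 of the 10 Sertoli markers, all but Amh. Id4 was 21.5 times higher than that median, Gfra1 6.63 times, Bcl6b 4.95 times, Etv5 4.00 times and Nanos3 1.54 times. Id4, Gfra1 and Bcl6b had a higher ratio than all 10 markers, and Etv5 than 9 of them. The summed level of the 10 genes over that of the Sertoli list was 0.0385, 0.0578, 0.0877 and 0.0770 at the 4 stages. Without Id4 it was 0.0334, 0.0275, 0.0249 and 0.0192, lower at each later stage. Clu made up most of the Sertoli sum, 706.7 of 953.7 FPKM at d12 and 456.6 of 552.8 in adult testis. With medians in place of sums the ratio was 0.117, 0.0939, 0.114 and 0.119, not lower at each later stage. The ratio without both Id4 and Clu was not tested.

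The scaling between libraries decides the sign for the genes near the middle. The FPKM sums of the libraries differ, from 283580 at d12 to 659202 in adult testis, and Gapdh, a glycolytic enzyme gene often used as a reference, itself had a log2 change of -1.78 from d12 to adult. Rescaling to a common FPKM sum, to a common upper quartile, by median ratio or by Gapdh put the median log2 change of all genes from d12 to adult at -1.05, -0.48, 0.21 and 2.02, against 0.20 as deposited. By median ratio the factors were 0.996 to 1.005, so that scaling nearly repeats the deposited values and is no separate check. Under all 5 scalings, counting the deposited one, Ret, Sall4, Zbtb16 and Lin28a were lower and Id4 was higher in adult testis than at d12. Id4 ranged from 2.80 to 22.4 times its d12 level, and d12 over adult ranged from 2.08 to 16.6 for Zbtb16, 2.04 to 16.3 for Lin28a, 2.91 to 23.2 for Sall4 and 8.76 to 70.1 for Ret. The Id4 level at d16 was above d12, and that of Gfra1 in adult testis above d24, under all 5 as well. From d12 to adult the direction of Gfra1, Etv5, Bcl6b and Nanos3 differed between scalings. From d16 to d24, Gfra1, Id4, Etv5 and Bcl6b were higher as deposited but lower with a common FPKM sum, at 0.943, 0.923, 0.752 and 0.758 times the d16 level. Among the paralogs Gfra2, Gfra4 and Sall3 were higher and Id1, Id2, Id3, Etv4 and Sall2 lower under all 5. Sall3 at d12 rests on 1 fragment at the least and Etv4 in adult testis on 1, a limit that no scaling removes. The other 5 paralogs with a ratio differed, and Gfra3, at 0 in adult testis, has no ratio. In the other lists, direction held under all 5 scalings for 5 lower of 11 undifferentiated markers with a ratio, 6 lower and 1 higher of 9 differentiating markers, 3 lower of 9 Sertoli markers with a ratio, 0 of 5 peritubular markers, 1 lower of 5 endothelial markers (Cdh5), 0 of 5 macrophage markers, 3 higher of 7 Leydig markers and 3 lower and 2 higher of 7 GDNF-induced genes with a ratio. Amh, listed at 0 in adult testis, has no ratio and is lower under any scaling. Epcam was among those that differed. Ranks within a library do not depend on the scaling. Id4 was above 66.6% of the 23983 genes at d12 and above 88.3%, 87.8% and 84.9% at the later stages, while Ret was above 51.6% at d12 and 22.6% in adult testis, Zbtb16 above 78.5% and 47.4%, Lin28a above 78.2% and 47.5% and Sall4 above 62.6% and 34.1%. Gfra1 stayed near the middle, above 50.3% at d12 and 52.6% in adult testis.

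**Figure D5:**
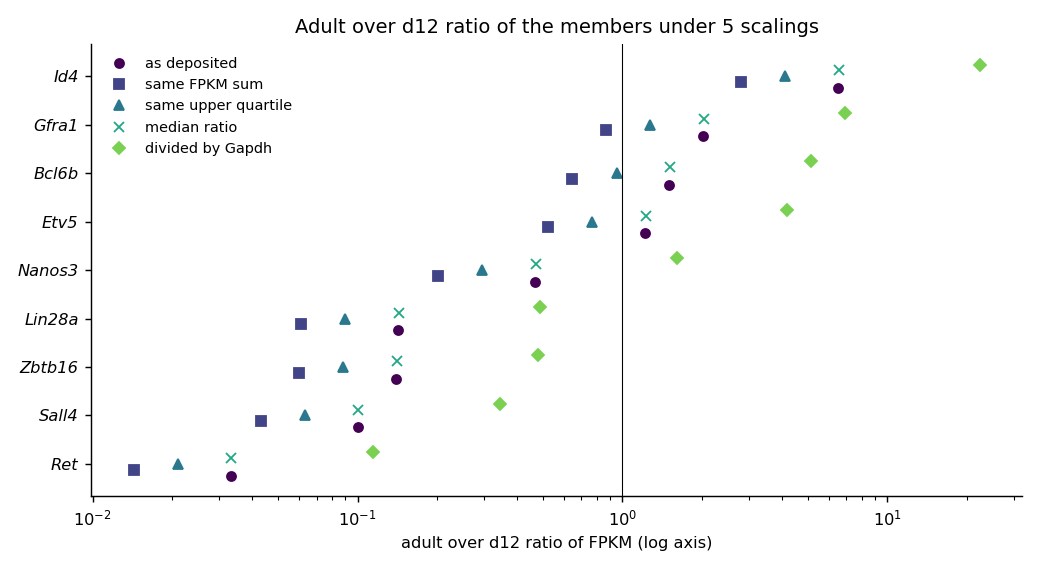
Adult over d12 ratio of FPKM (horizontal log axis) for 9 of the 10 genes (vertical axis) under the deposited values and 4 other scalings, 1 library per stage, with a line at 1. Ret, Sall4, Zbtb16 and Lin28a lie left of the line and Id4 right of it under every scaling. Nanos3, Etv5, Bcl6b and Gfra1 have points on both sides. The median ratio points nearly repeat the deposited ones.

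The mean profile of the 10 genes was far from that of each of them. The mean centred log2 profile was 0.28 at d12, then 0.28 at d16 and -0.10 at d24, against -0.47 in adult testis. Among 4634 genes whose mean reached 5 FPKM and with 1 curated transcript, those nearest to it were Psma2 (distance 0.0374 in log2 over the 4 libraries), Snrpe (0.0415), Dhx9 (0.0577), Rbx1 (0.0584) and Gpatch1 (0.0620). The 10 genes themselves lay between 0.695 (Nanos3) and 2.70 (Id4) from it.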

How the data were processed

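RNA of testis at d12, d16, d24 and adult was measured with 1 strand-specific paired-end library per stage. The 4 H3K27Ac ChIP-seq samples are not analysed here. FPKM values of 23983 genes were deposited by the authors. Per the labels and the methods, reads of 50 bases were mapped with TopHat2 2.1.0, which ran Bowtie 1.1.2, on GRCm38/mm10 and RefSeq genes at 1 alignment per pair. Cuffdiff (Cufflinks 2.2.1) gave FPKM, corrected for multi-reads and sequence bias but not for effective length. The scaling inside Cuffdiff is not given in the sources used here. The deposited values lie close to a median ratio scale, for which the factors of the 4 libraries were 0.996 to 1.005.

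Fragments were recovered as whole multiples of FPKM times transcript length. Among values up to 20 fragments of genes with 1 transcript, 91.9% to 92.6% lay within 0.05 of a whole number. Where no curated length gave whole numbers in all 4 libraries, the range over transcript lengths is given and intervals use the fewest fragments. For a count of 0 the limit is 3 fragments. Intervals cover counting error only. No count test was run, with 1 library per stage. Log2 changes use a pseudocount of 0.1 FPKM, which understates changes of low genes. Counts past 2-fold use genes whose mean reached 1 FPKM.

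Near copies (at least 50 bases, 95% identity) were searched with blastn 2.17.0. Python 3.11.15, numpy 2.4.6, pandas 2.3.3, scipy 1.17.1 and matplotlib 3.10.9 were used, and the steps were tested on simulated data. Named are the 10 genes, their paralogs, the ligands, Gapdh, the 5 genes nearest to the mean profile and, drawn from each other list, genes with the highest d12 level or the extreme changes. Overlapping genes, Pou5f1, and comparisons with the median Sertoli marker were added after the values were seen. Of the ratios shown between pairs of the 10 genes, only Gfra1 over Ret was planned. The genes and lists were chosen with earlier results of these data known.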

Additional observations from a re-analysis of the deposited data

How the results depend on the processing

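Of 123 alternative values of 27 results, 67 stayed within the counting error or, for counts and sums, within 1.5 times. Another 47 moved further and 9 changed sign. The 67 include every value by median ratio, which nearly repeats the deposited scaling. Among the 67, Gfra1 over Ret became 5.16 at d24 and 17.2 in adult testis with 0.1 FPKM added to both, and with a pseudocount of 1 FPKM the Ret change from d12 to adult became -1.19 and the median from d24 to adult -0.14. Shares of all genes past the same limit are given in brackets. The number of genes at least 2-fold lower from d12 to d16, 1, became 0 with division by Gapdh (0.748%), a pseudocount of 1 FPKM (0.942%), a mean of at least 5 FPKM (1.87%) or a 4-fold limit (0.36%), and 3 at 1.5-fold (13.4%). From d16 to d24, 2 became 0 with Gapdh (0.352%) or 4-fold (0.396%), 1 with a pseudocount of 1 FPKM (4.09%), 3 with the FPKM sum (30.2%), the upper quartile (17%) or 1.5-fold (22.4%) and 4 of 10 with no filter (8.05%). From d24 to adult, 1 became 3 with the FPKM sum (9.83%), the upper quartile (4.13%) or 1.5-fold (8.72%), and 0 with a pseudocount of 1 FPKM (0.417%), a mean of at least 5 FPKM (0.801%) or 4-fold (0.237%). From d12 to adult the count was 2 to 4, with shares of 1.9% (Gapdh) to 49.8% (FPKM sum). Median log2 changes turned with Gapdh to 0.18 (d12 to d16), 0.76 (d16 to d24) and 0.86 (d12 to adult). With the FPKM sum they became -0.90 (d16 to d24) and -1.38 (d12 to adult), and with the upper quartile -0.89 (d12 to adult). Without Nanos2, a choice made after seeing the data, they were -0.82 (d16 to d24) and -0.89 (d12 to adult). From d12 to adult Gfra1 turned to -0.20, Etv5 to -0.90 and Bcl6b to -0.56 with the FPKM sum, Etv5 to -0.37 and Bcl6b to -0.066 with the upper quartile, and Nanos3 to 0.55 with Gapdh. These signs follow from the factors themselves. The sum over the Sertoli list became 0.149, 0.240, 0.378 and 0.443 at the 4 stages without Clu, its highest gene. Without Id4 it became 0.0275 at d16 and 0.0249 at d24, against 0.0192 in adult testis, and with medians 0.117 at d12, 0.0939 at d16 and 0.119 in adult testis. No change is given for Nanos2, at 0 at d12. No paired analysis was possible because there is 1 library per stage, and for the same reason no library could be left out. Counting error, a median of 0.46 in log2 on either side from d12 to adult, limits Ret, Sall4, Bcl6b, Nanos2 and Nanos3 most.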
